A study of Drosophila melanogaster with 2 samples.

Results

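The genes described here encode subunits of the mitochondrial oxidative phosphorylation complexes. Protein-coding genes of the Ensembl fruit fly annotation were taken when their symbol starts with ND-, UQCR-, COX or ATPsyn, which gave 80 of the 13945 protein-coding genes on the 6 chromosome arms or chromosomes that carry regions. By symbol, 40 belong to complex I (ND-), 9 to complex III (UQCR-), 16 to complex IV (COX) and 15 to complex V (ATPsyn). The regions come from 2 chromatin immunoprecipitation libraries made from pooled male and female Drosophila melanogaster, whole pupae aged 48 h, of 1 transgenic line that stably expresses CG8301 with GFP at its C terminus. Both libraries are biological replicates of 1 group, so there is no contrast between conditions. The antibody label names CG8301, yet the description of each library calls it an input control. The regions below are therefore not assigned to the fused protein. Chromatin came from whole animals, so a region cannot be tied to a tissue.

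Complex I passes electrons from NADH to ubiquinone, complex III from ubiquinol to cytochrome c, and complex IV from cytochrome c to oxygen. The proton gradient that they build drives ATP synthesis by complex V. Most subunits are encoded in the nucleus, and flies carry further copies of several subunit genes, many of them known for testis expression.

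A gene was given a promoter region when the summit of a listed region lay within 500 bp of any annotated transcript start. The list of regions past the authors' irreproducible discovery rate threshold (IDR list) holds 8005 regions, the 8005 strongest of the pooled list. The pooled list and the list of each replicate hold 30000 regions each, described as peaks and background. Regions are ranked within a list by the authors' signal value, whose scale is not stated, with rank 1 the strongest. Many regions have 1 fixed width and their summit at the centre. This holds for 15.5% of the IDR list, 75.1% of the pooled list, 84.2% of the replicate 1 list and 79.9% of the replicate 2 list. In such regions the summit gives the position only as the middle of the region. The depth of the libraries is unknown.

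An IDR promoter peak was listed at 8 of the 80 genes. In rank order these were ND-ASHI, ND-MWFE, COX7AL2, ND-SGDH, ATPsynCF6, ND-24, COX5A and COX7B. The sequences of 101 bases centred on the summit are shown for 5 of them, because these are the places where the list puts signal at the subunit genes. They were read from the RefSeq copy of the dm6 assembly on the strand of the subunit gene, 5′ to 3′. Capitals mark matches to the motifs searched, which are given with the promoter sequences.

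ND-ASHI, chrX:6679309-6679409, minus strand: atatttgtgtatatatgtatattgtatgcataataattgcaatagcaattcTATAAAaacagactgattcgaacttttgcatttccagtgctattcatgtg
ND-SGDH, chr3L:12138600-12138700, minus strand: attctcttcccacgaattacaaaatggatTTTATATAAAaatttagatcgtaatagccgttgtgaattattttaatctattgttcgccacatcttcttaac
ATPsynCF6, chr3R:23356132-23356232, minus strand: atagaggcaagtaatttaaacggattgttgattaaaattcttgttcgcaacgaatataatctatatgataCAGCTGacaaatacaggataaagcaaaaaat
COX5A, chr3R:11819431-11819531, plus strand: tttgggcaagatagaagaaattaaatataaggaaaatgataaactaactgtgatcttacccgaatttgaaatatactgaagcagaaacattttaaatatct
COX7B, chr3L:17425316-17425416, plus strand: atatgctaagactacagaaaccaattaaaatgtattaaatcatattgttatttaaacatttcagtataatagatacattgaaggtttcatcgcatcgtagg

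All of these windows are rich in A and T. Over the 8 peaks the GC content of the window had a median of 27.7% and lay between 18.8% (COX7AL2) and 28.7%, and over the peaks of all 2257 protein-coding genes with an IDR promoter peak it had a median of 30.7% with quartiles of 25.7% and 37.6%. TATAAA was in 4 of the 8 windows, those of ND-ASHI, ND-MWFE, COX7AL2 and ND-SGDH, and in 24.6% of the windows of all 2257 genes. In the ND-SGDH window the capitals hold TATAAA on both strands, overlapping TTATATAA. CAGCTG was in the window of ATPsynCF6 alone among the 8, and in 3.23% of all. The windows of COX5A and COX7B held none of the motifs searched. These 2 regions have the fixed width of 410 bp, so their windows are only the middle of the region.

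The 8 genes are 10% of the subunit genes (exact 95% interval 4.42 to 18.8), and 16.2% of all protein-coding genes had an IDR promoter peak. The interval includes the share of all genes. By complex the counts were 4 of 40 for complex I, 0 of 9 for complex III, 3 of 16 for complex IV and 1 of 15 for complex V. In the pooled list 19 subunit genes had a promoter region (23.8%, interval 14.9 to 34.6), beside 31.6% of all genes. The replicate 1 list gave 31 genes (38.8%), beside 37.6% of all genes, and the replicate 2 list gave 19 (23.8%), beside 31.1%. Both replicate lists held a promoter region for 14 subunit genes (17.5%, interval 9.91 to 27.6), beside 26% of all genes. Each interval covers counting error of genes only. At 43 of the 80 genes (53.8%) no list had a promoter region, beside 56.8% of all genes.

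**Figure D1:**
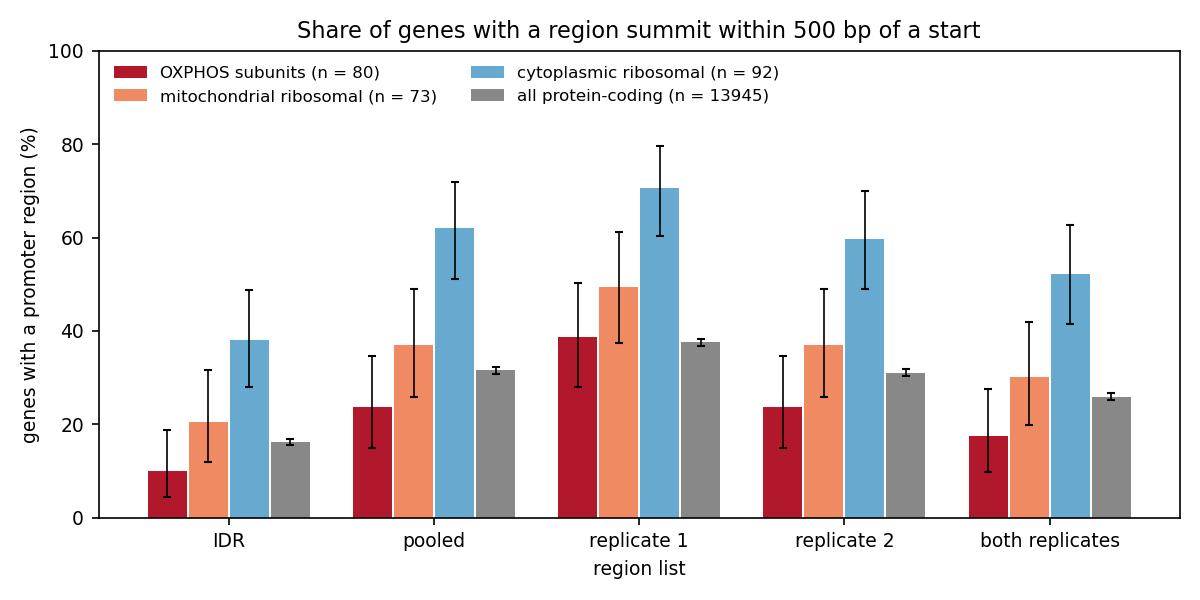
Share of genes with a promoter region, in percent, in each region list, for the 80 oxidative phosphorylation subunit genes, 73 mitochondrial ribosomal protein genes, 92 cytoplasmic ribosomal protein genes and all 13945 protein-coding genes; error bars are exact 95% binomial intervals. The subunit genes stand at 10% in the IDR list and 38.8% in the replicate 1 list, and all protein-coding genes at 16.2% and 37.6%.

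Mitochondrial ribosomal protein genes, whose products translate the subunits encoded in the mitochondrial genome, had an IDR promoter peak in 15 of 73 cases (20.5%, exact interval 12.0 to 31.6). Cytoplasmic ribosomal protein genes had one in 35 of 92 cases (38.0%, interval 28.1 to 48.8), and this interval lies above that of the subunit genes. The difference was not tested, and the families were not matched for number of starts or head-to-head order. In the pooled list the shares were 23.8% of the subunit genes, 37.0% of the mitochondrial and 62.0% of the cytoplasmic ribosomal protein genes.

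The strongest peak at a subunit gene belonged to ND-ASHI (FBgn0029888), which encodes an accessory subunit of the membrane arm of complex I. It spans chrX:6679102-6679573 and had a signal of 1658 at IDR rank 233. Its summit lay 241 bp upstream of a start of ND-ASHI and 281 bp upstream of a start of Fum1. It is outside ND-ASHI, in an annotated intron of another gene. Fum1 has another start, 164 bp from a start of ND-ASHI, and the summit lies downstream of that one. Fum1 encodes fumarase, an enzyme of the citrate cycle, and reads in the opposite direction. The region ranked 211 in replicate 1, where its summit was 233 bp from the same start, and 281 in replicate 2, at 247 bp. ND-ASHI has 2 further starts, 858 and 957 bp downstream, so the peak is near only the most distal of its starts.

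ND-MWFE, an accessory subunit of complex I, had the next peak (chr2R:13158339-13158668, signal 927, IDR rank 851). Its summit was 182 bp upstream of ND-MWFE and 39 bp upstream of TppII, the gene of tripeptidyl peptidase II, which was the nearer start. The region ranked 1708 in replicate 1 and 575 in replicate 2, and the replicate summits lay 0 and 12 bp from the IDR summit. The other peaks at complex I genes were weaker. ND-SGDH, a further accessory subunit of the membrane arm, had its peak at chr3L:12138511-12138745 with a signal of 310 and IDR rank 3783. Its summit lay between genes, 66 bp upstream of ND-SGDH. The replicates ranked this region 4557 and 3739.

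ND-24 is the only core subunit of complex I among the 8, an iron-sulphur protein of the matrix arm. Its peak (chrX:17632095-17632300, signal 213, IDR rank 5549) had the summit 50 bp downstream of a start, in the 5′ UTR, and 92 bp upstream of corolla, a gene of the synaptonemal complex. The replicate 1 list held an overlapping region at rank 8435, with its centre 128 bp from the IDR summit. The replicate 2 list held no overlapping region, and its nearest summit was 4345 bp from a start of ND-24.

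Of the 3 complex IV peaks that of COX7AL2 was the strongest (chr2L:2197261-2197627, signal 402, IDR rank 2773). COX7AL2 is a copy of the gene of the small subunit 7A, and its summit was 463 bp downstream of the most distal start, in the 5′ UTR. The other starts of COX7AL2 lie 4902 and 4949 bp further downstream. The region ranked 2216 in replicate 1 and 3231 in replicate 2, and the strongest replicate summits fell within 11 bp of the IDR summit. COX7AL2 is also the gene among the 8 with no start of another protein-coding gene within 500 bp of its summit.

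COX5A, an accessory subunit on the matrix side, had its peak at chr3R:11819276-11819685 with a signal of 193 and IDR rank 6144. The summit was 118 bp upstream of a start of COX5A and 61 bp upstream of a start of glo. The gene glo encodes an RNA-binding protein of the hnRNP F and H family. The other start of COX5A is at -240 bp from its nearer start. The summit therefore lies between the 2 starts of COX5A, in an annotated intron. Replicate 1 listed overlapping regions at ranks 9424 and 10298, with summits 423 and 106 bp upstream of the nearer COX5A start. Replicate 2 listed none, and its nearest summit was 11356 bp from a start of COX5A. COX7B, a small accessory subunit, had the lowest signal of the 8 (chr3L:17425161-17425570, signal 182, IDR rank 6477). Its summit was 111 bp upstream of COX7B and 149 bp upstream of Sec3, an exocyst gene, and the region ranked 8504 in replicate 1 and 6283 in replicate 2.

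The complex V peak was at ATPsynCF6, which encodes coupling factor 6, a subunit of the peripheral stalk (chr3R:23356100-23356331, signal 308, IDR rank 3810). Its summit was 118 bp upstream of ATPsynCF6 and 96 bp upstream of Sec13, a gene of the COPII coat and the nuclear pore. Replicate 1 ranked the region 5944 and replicate 2 ranked it 3164. Summits were 175 bp upstream in replicate 1 and 127 bp upstream in replicate 2. For the 4 peaks of highest rank the strongest replicate summits were 0 to 63 bp from the IDR summit.

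**Figure D2:**
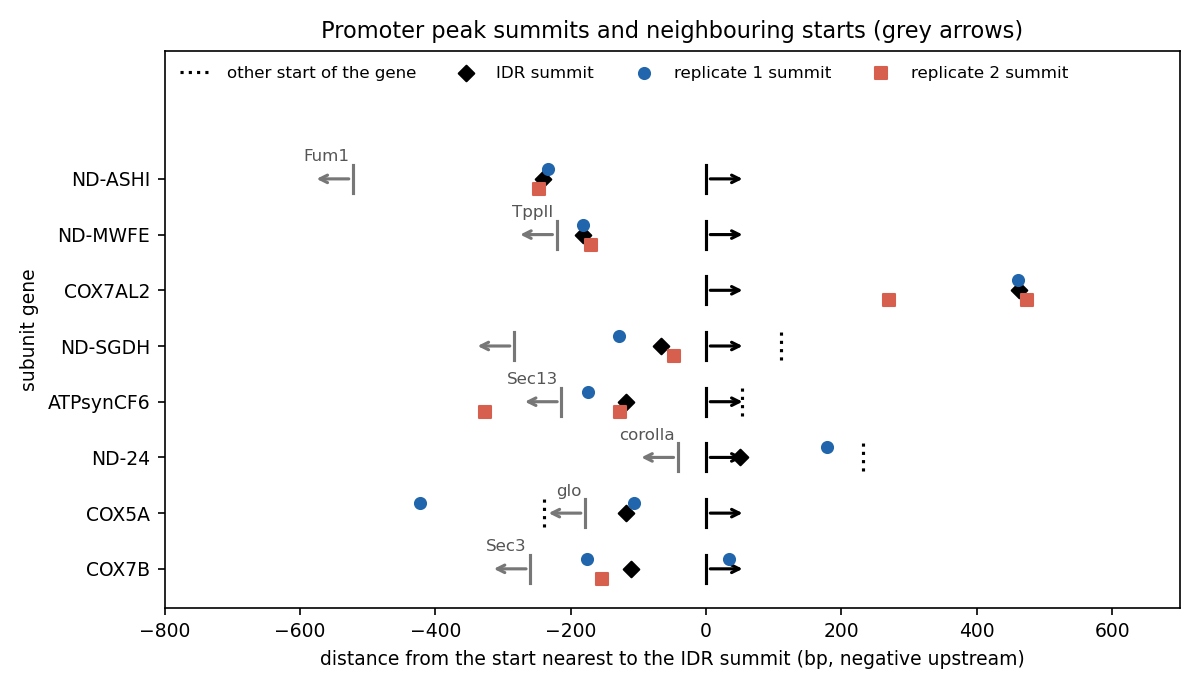
Summits of the 8 IDR promoter peaks (diamonds) and of every overlapping replicate 1 region (circles) and replicate 2 region (squares), as distance in bp from the start of the subunit gene nearest to the IDR summit. Black arrows mark that start and its direction, dotted lines other starts of the subunit gene, and grey arrows neighbouring starts within 500 bp of the summit, named except at ND-SGDH; in 6 genes the IDR summit lies between the 2 arrows, and ND-24 and COX5A have no square.

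Peaks at subunit genes mostly had a start of another gene near the summit. In 7 of the 8 (87.5%) the summit had the start of another protein-coding gene within 500 bp, and in 42.3% of all 2257 genes with an IDR promoter peak. In 6 of the 8 (75%) the summit was upstream of the nearest start of each gene of an opposite-strand pair, and in 30.5% of all genes with a peak. This counts the nearest start only, and the summits at ND-ASHI, ND-MWFE and COX5A lie in annotated introns. The subunit gene was the nearer gene in 5 of the 8 (62.5%), and the gene with the peak was the nearest in 79.9% of all; at ND-MWFE, ATPsynCF6 and COX5A the neighbour was nearer. The data do not say to which gene of a pair such a region relates.

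Over the 8 peaks the median position of the summit was -114.5 bp, negative values being upstream, with a range from -241 to 463 bp, and the median over all genes with a peak was -160 bp. The median IDR rank was 3796.5 for the subunit genes and 3166 for all genes with a peak, with median signals of 309 and 361.

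Head-to-head order is common among these genes. A protein-coding start on the opposite strand, pointing away and at most 1000 bp off, was annotated for 42 of the 80 (52.5%), and for 36.2% of all protein-coding genes. Of these 42, 7 had an IDR promoter peak (16.7%), and of all 5052 head-to-head genes 23.4% had one. Of the 38 subunit genes without such a neighbour only COX7AL2 had a peak (2.63%), beside 12.1% of all 8893 genes without one. In the pooled list the shares were 35.7% of the 42 and 10.5% of the 38 subunit genes, and 38.9% and 27.4% of the corresponding genes over the genome. Most copies of subunit genes, described below, fall in the class without a neighbour. The exceptions are COX7AL, ATPsynbetaL and ATPsynepsilonL, so the split by neighbour overlaps with that into copies and other genes.

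**Figure D3:**
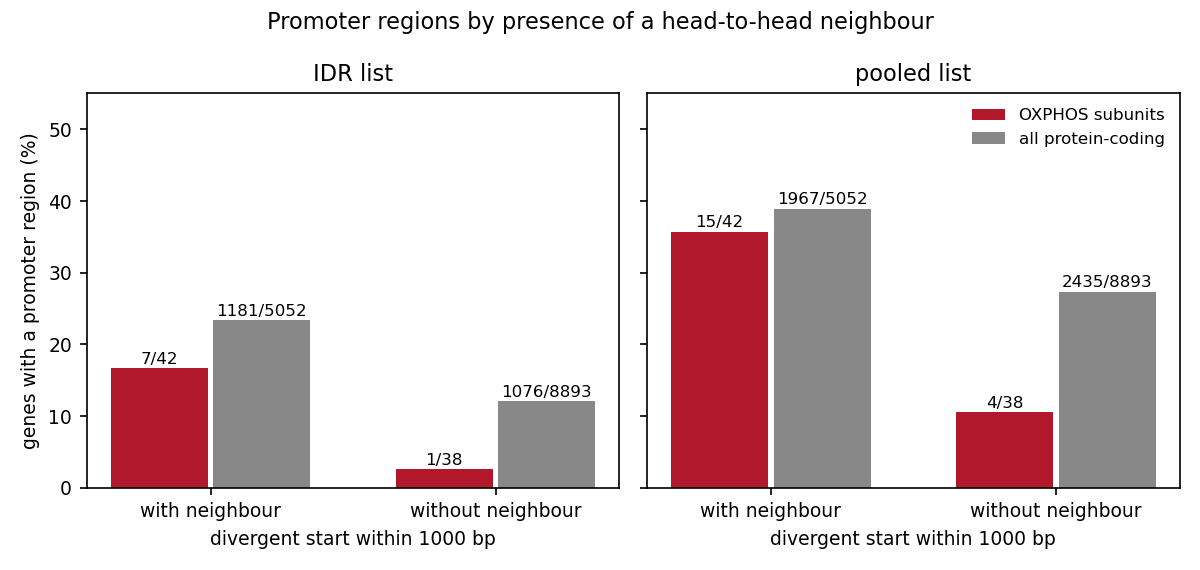
Percent of genes with a promoter region in the IDR list (left) and the pooled list (right), split by whether a divergent protein-coding start lies within 1000 bp, for the subunit genes (left bar of each pair) and all protein-coding genes (right bar); numbers above bars give genes with a region over genes in the class. With a neighbour the bars are 16.7% and 23.4% in the IDR list, and without one 2.63% and 12.1%.

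Subunit genes had 1 annotated start in 46 of 80 cases, and more starts mean more sequence searched. An IDR promoter peak was listed for 2 of these 46 genes, 4 of the 29 with 2 starts and 2 of the 5 with 3 or more. Over all protein-coding genes the counts were 1108 of 10246, 626 of 2566 and 523 of 1133.

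Copies of subunit genes were almost without regions. Symbols that end in L, with or without a digit, mark 21 such copies. Of these, COX7AL2 had an IDR peak and ATPsynepsilonL, a copy of the epsilon subunit gene of complex V, had a region in the pooled list and both replicate lists. The other 19 copies (90.5%) had no promoter region in any list, beside 56.8% of all protein-coding genes. Among the 59 genes that are not copies, 24 (40.7%) had none, 7 had an IDR peak (11.9%), and 17 a pooled region (28.8%). Copies without a region include ND-20L, ND-24L and ND-49L of complex I, UQCR-14L of complex III, COX4L and COX5BL of complex IV and ATPsynbetaL of complex V. How far reads from copies of like sequence could be placed is not given in the sources used here.

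Of the 72 genes without an IDR peak, 11 had a promoter region further down the pooled list. They are 13.8% of the 80 subunit genes, beside 15.4% of all protein-coding genes with such a region and no IDR peak. All 17 pooled regions outside the IDR list at subunit genes had the fixed width of 410 bp. Of all 30000 pooled regions 22521 had that width and a central summit, only 1241 of them in the IDR list. Most of the 21995 pooled regions outside the IDR list therefore have it too. Among the 11 genes, the strongest for complex I were at ND-MNLL (signal 122, pooled rank 9206, 97 bp upstream), ND-B22 (signal 111, rank 9863, 24 bp upstream) and ND-AGGG (signal 58.7, rank 15759, 46 bp upstream), which encode accessory subunits. For complex IV they were at COX5B (signal 112, rank 9848, 191 bp upstream) and COX7C (signal 72.3, rank 13588, 93 bp downstream). For complex V, still among the 11, they were at ATPsynbeta, the catalytic subunit of the enzyme (signal 97.3, rank 10903, 394 bp upstream), ATPsynepsilonL (signal 64.4, rank 14761) and ATPsynD (signal 43.2, rank 19354, 1 bp downstream). In 7 of the 11 genes the start nearest to the strongest region was the gene's own. At ND-MNLL, COX5B, ATPsynbeta and ND-15 it belonged to a neighbour. Of the genes with an IDR peak, ATPsynCF6 (signal 81.2, rank 12494), ND-ASHI (signal 79.8, rank 12656) and COX7AL2 (signal 38.4, rank 20910) each had a further pooled region. No complex III gene had a promoter region in the pooled list.

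In the IDR list, the subunit genes nearest to the limit of 500 bp from inside were COX7AL2 at 463 bp and ND-ASHI at 241 bp. From outside they were ND-75, the large iron-sulphur subunit of complex I, with an IDR summit 760 bp from a start (rank 551), and ATPsynE, a small subunit of complex V, at 823 bp (rank 1913). Over all 80 genes the nearest IDR summit was at a median of 4674 bp from a start, with quartiles of 2742 and 13921.5 bp. Over all protein-coding genes the median was 7047 bp, with quartiles of 1743 and 17347 bp.

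The replicate lists differed at these genes. A promoter region was in the replicate 1 list alone for 17 of the 80 genes (21.2%), beside 11.6% of all genes, and in the replicate 2 list alone for 5 (6.25%), beside 5.11%. All 17 regions of replicate 1 had the fixed width of 440 bp, beside 94.8% over all 1617 genes with a region in that list alone. Their median rank was 19066 of 30000, and over all such genes it was 13863. Of the 17 genes, 15 had no promoter region in the pooled list; the exceptions were ND-24 and COX5A. On the X chromosome the replicate 1 list held regions at 9 of 12 subunit genes and the replicate 2 list at 3, and over all 2196 genes of the X at 1064 and 764.

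The strongest region in replicate 1 alone was at ND-42, an accessory subunit of complex I, at rank 3680 with its centre 170 bp upstream. ND-42 stands head to head with Cchl, the cytochrome c heme lyase gene, 229 bp away. The nearest summit to ND-42 was 2148 bp off both in the replicate 2 list and in the pooled list. Besides ND-42, ND-24 and COX5A, the genes with a region in replicate 1 alone were ND-13B, ND-18, ND-49, ND-B14.5A, ND-B14.5B and ND-B16.6 of complex I, UQCR-14, UQCR-C2 and UQCR-Q of complex III, COX4, COX6B and COX7A of complex IV, and ATPsyngamma and ATPsyndelta of complex V. The ranks of these 14 genes lay between 12131 (ND-49) and 25006 (ATPsyndelta), with ND-24 at 8435 and COX5A at 9424. In replicate 2 alone there were ND-13A, ND-75, ND-AGGG, ND-MLRQ and UQCR-11, at ranks from 11593 (UQCR-11) to 25091 (ND-13A). ND-15 had a region in the pooled list only, at rank 29382.

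Of the 14 genes in both replicate lists, 6 had an IDR peak. The other 8 were ND-MNLL, ND-B22, COX5B, COX7C, ATPsynbeta, ATPsynC, ATPsynD and ATPsynepsilonL. At ND-MNLL the strongest regions lay close together, 129 bp upstream at rank 17552 in replicate 1 and 111 bp upstream at rank 8327 in replicate 2. At COX5B, COX7C, ATPsynC, ATPsynD and ATPsynbeta the centres of the strongest regions lay farther apart. At COX7C the centre was at 85 bp in replicate 1 (rank 7669) and at -374 bp in replicate 2 (rank 17017), negative values being upstream. At ATPsynD it was at 138 bp in replicate 1 (rank 24900) and at -34 bp in replicate 2 (rank 17224). At COX5B the centre was 23 bp downstream in replicate 1 (rank 19051) and 191 bp upstream in replicate 2 (rank 7906). At ATPsynC, which encodes the ring subunit c, the replicate 1 centre was 60 bp downstream (rank 7230) and the replicate 2 centre 389 bp upstream (rank 18605). At ATPsynbeta the replicate 1 centre was 82 bp downstream (rank 9063) and the replicate 2 centre 450 bp upstream (rank 8958), while the replicate 1 region that overlaps the pooled one ranked 25802. A gene counted in both lists therefore need not have the same region in both.

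**Figure D4:**
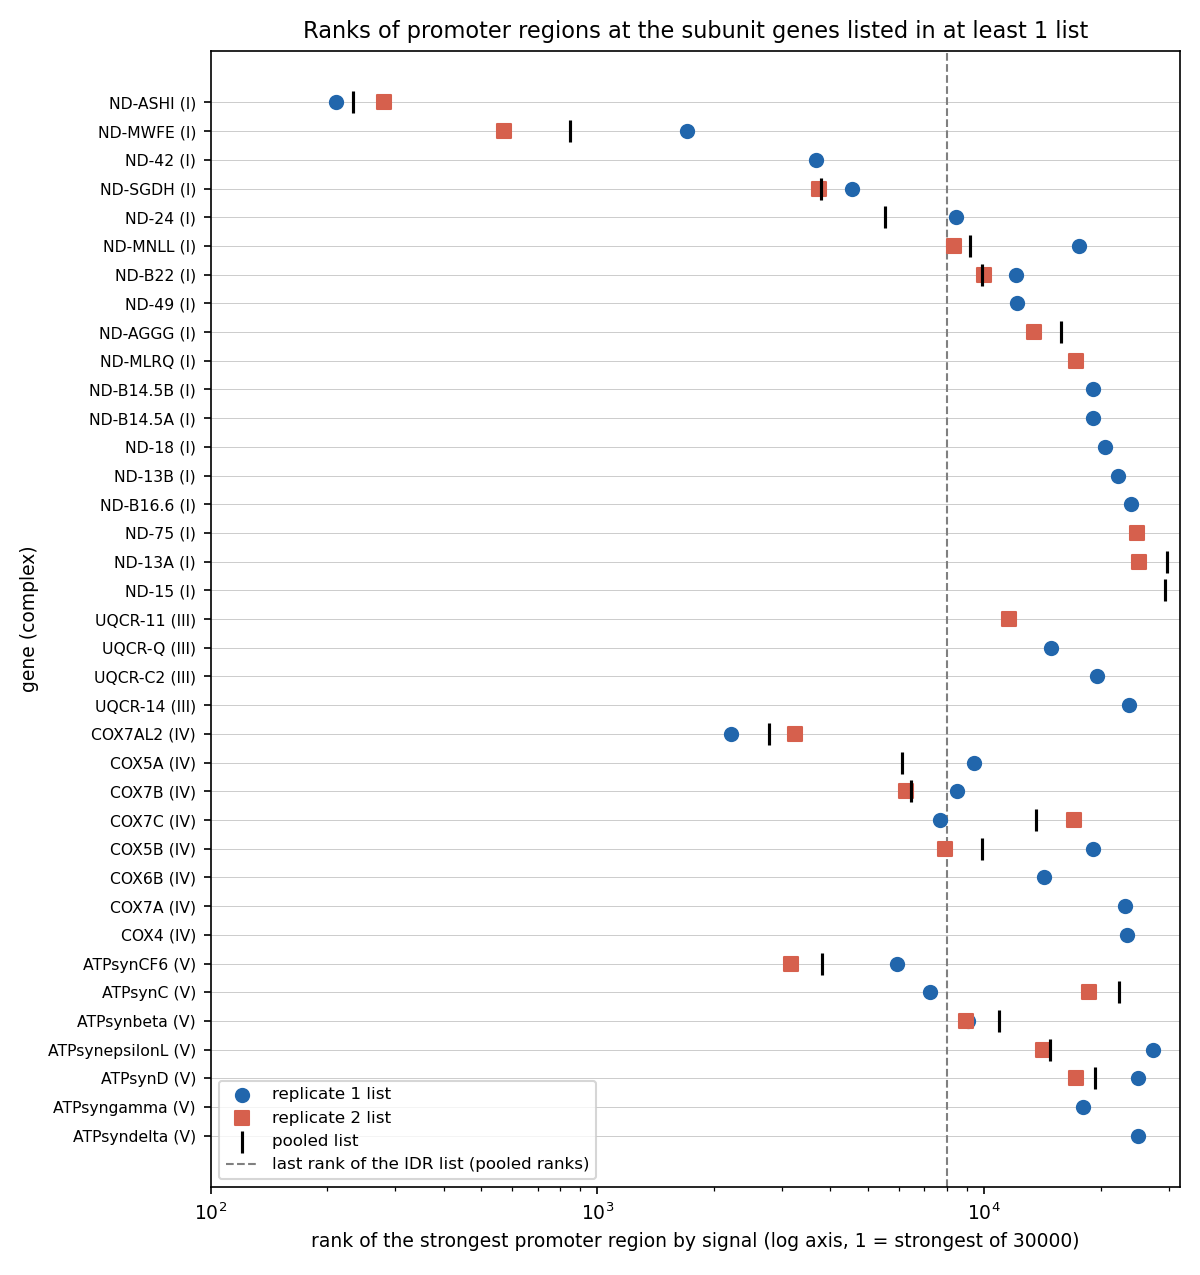
Rank by signal of the strongest promoter region at each of the 37 subunit genes with a region in at least 1 list, grouped by complex, for replicate 1 (circles), replicate 2 (squares) and the pooled list (bars), on a log axis on which 1 is the strongest of 30000. The dashed line is rank 8005, the end of the IDR list on the pooled ranks; 8 bars lie left of it, and no complex III gene has a bar.

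Promoter sequence gave further features that the regions were not used to choose. In the 300 bases from 250 before to 50 after the annotated 5′ end of each gene, the core promoter element Ohler motif 1 was found on either strand in 13 of the 80 subunit genes (16.2%) and in 4.50% of all promoters. All 13 are among the 59 genes that are not copies (22.0%). Either strand was searched, and a head-to-head neighbour is annotated for 52.5% of the subunit genes and 36.2% of all genes. The motif shares were not adjusted for that order. The motif was in 8.22% of the mitochondrial and 8.70% of the cytoplasmic ribosomal protein gene promoters. It was in the promoters of 3 of the 8 genes with an IDR peak, COX5A, COX7B and ND-MWFE. No summit window of the 8 held it, and 0.266% of the windows of all genes with a peak did. The sites of COX5A and COX7B do lie within their IDR regions, whose windows are only the middle of a region of fixed width. The sites of COX5A and COX7B are shown with those of COX5B, ATPsynC and ATPsynD, genes with a promoter region in the pooled list, to show the shared letters. The pooled region of ATPsynC (chr3R:31219869-31220278) does not hold its site. ND-13A also has the motif and a pooled region and is not shown. Each is given on the strand of the gene with the motif in capitals; in COX5A and ATPsynD it reads on the opposite strand.

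COX5A, chr3R:11819313-11819341, plus strand: ttgaagatgCAGTGTGACCGcaattaaat
COX7B, chr3L:17425476-17425504, plus strand: acaacacaaCGGTCACACTGttcaacaca
COX5B, chr2L:6557802-6557830, plus strand: actttaccgCGGTCACACTGatccatagc
ATPsynC, chr3R:31219778-31219806, minus strand: ctactgttaTGGTCACACTGcgcctattg
ATPsynD, chr3R:19094884-19094912, plus strand: ggcagctgaTAGTGTGACCGacccgaggg

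The centre of the motif was 32 bp upstream of the 5′ end in COX5A, 162 bp upstream in ATPsynC and 102 bp upstream in ATPsynD. It was 13 bp downstream in COX7B and 16 bp downstream in COX5B. COX5A and ATPsynD, with sites on the opposite strand, stand head to head with glo (20 bp away) and mRpL55 (95 bp away). To which gene of such a pair a site relates was not tested. The other motifs were searched on both strands too. TATAAA was in 53.8% of the subunit promoters and 45.8% of all, and CAGCTG in 23.8% and 17.7%. CAGCTG was also in 54.8% of the mitochondrial and 9.78% of the cytoplasmic ribosomal protein gene promoters. TATCGATA, the DNA replication-related element, was in 9 of the 80 (11.2%) and 9.36% of all, and in 20.5% of the mitochondrial and 30.4% of the cytoplasmic ribosomal protein gene promoters. GAGAGA was in 4 (5%) and 12.3% of all, and CACGTG in 4 (5%) and 4.20% of all. The core of the NRG element, a motif described for fly genes of respiration and searched as TTACATAA, TTACGTAA or TTATATAA, was in 5 (6.25%) and 5.18% of all. Those 5 are ND-30, ND-42, ND-49, ND-MNLL and ND-SGDH. The 10-base NRF-1 palindrome was in 0 of 80 and 0.208% of all. Letters that match a motif are not evidence of a bound site. Subunit promoters had a median GC content of 33.8%, and all promoters 38.0%.

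Genes of the same pathway that the name rule does not reach were counted from 4 lists, and the shares of all protein-coding genes to set beside them are 16.2% in the IDR list and 31.6% in the pooled list. Of 15 further subunits and electron carriers, 4 had an IDR promoter peak (SdhC, Cyt-c-d, blw and cype) and 8 a pooled region. Cyt-c-d, a cytochrome c gene known for its role in sperm, had the strongest, with a signal of 2468 at rank 75, and its summit was 376 bp downstream of a start. The peak at blw, the alpha subunit of complex V, had a signal of 501 at rank 2121, 209 bp upstream. SdhC, a membrane anchor subunit of complex II, ranked 6770, and cype, a complex IV subunit, ranked 7772. The lists of assembly and cofactor genes gave 2 of 9, CIA30 (signal 2052, rank 135), a complex I assembly factor, and Cox17 (signal 408, rank 2713), a copper chaperone of complex IV. The list of citrate cycle genes also holds the pyruvate dehydrogenase genes Pdha, Pdhb and muc, and gave 6 of 14. These were Fum1, which shares its peak with ND-ASHI, Idh3g (rank 526), mAcon1 (rank 2690), Scsalpha1 (rank 5866), kdn (rank 6762) and muc (rank 7711). Of 11 carrier and regulator genes, porin alone had a peak (rank 7197). These lists are small, and no share of them was tested.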

How the data were processed

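The authors deposited 1 region list for each of 2 biological replicates of 1 group, 1 for the pooled replicates and 1 past their IDR threshold, all on dm6. Replicate and pooled lists rest on alignments and a control file, per the deposited text files. The sources used here name no caller, aligner, filter or threshold value. The signal of each region is the deposited value of the authors, with no stated scale, and ranked regions within a list. The authors' summit offset was the other value used.

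Starts came from Ensembl release 115 (BDGP6, the dm6 assembly) and bases from the RefSeq copy of that assembly; no region ends beyond its sequence. A summit counted for every gene with a start within 500 bp, and the strongest region was kept per gene and list. Replicate regions were matched to IDR peaks by an overlap of at least 1 bp. Coordinates are 1-based. Intervals are exact (Clopper-Pearson, 95%), from scipy 1.17.1 under python 3.11.15. The series has no contrast, so no test was made, and shares stand beside those of all protein-coding genes. The assignment was tested on simulated summits.

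The members and lists were chosen with earlier results of these data known. Named are members with an IDR peak, up to 3 per complex with the strongest further pooled regions, 2 on each side of the distance limit, and neighbours; other names were added after the values were seen. The suffix rule for copies also matched ND-MNLL, which is no copy and was counted with the other genes. Of the pathway list entries 6 matched no symbol and 49 were used. Other windows, starts, parts of the lists and single replicates were tried.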

Additional observations from a re-analysis of the deposited data

How the results depend on the processing

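The count of 8 subunit genes with an IDR promoter peak was 7 with a window of 250 bp (COX7AL2 lost; 11.7% of all genes), 12 with 1000 bp (ATPsynE, ND-39, ND-75 and ND-MNLL gained; 20.4% of all genes) and 8 with the annotated 5′ end alone (13.5% of all genes). It fell to 5 among the 4002 strongest IDR regions, where 9.74% of all genes had a peak. When a summit counted only for the gene with the nearest start, it was also 5. Of all 2257 genes with an IDR promoter peak, 1803 had the nearest start. With 8005 regions of a single replicate the count of subunit genes was 7 to 8. Replicate 2 alone (16.2% of all genes) lost COX5A and ND-24 and gained COX5B; replicate 1 alone (17.4%) lost COX5A, COX7B and ND-24 and gained ATPsynC, COX7C and ND-42. The 19 genes with a pooled region became 19 to 31 with the whole list of 1 replicate, the higher count being that of replicate 1. The 14 genes in both replicate lists became 5 among the 8005 strongest regions of each. The share of all genes was not counted for that setting, so this drop cannot be set beside theirs. The median position of -114.5 bp was -118 bp with 250 bp and among the strongest regions, -88.5 bp with the 5′ end alone and -154 to -149.5 bp in single replicates. The median percentile of rank within the list, 52.6, was 30.7 among the strongest regions. The causes were not tested. No paired analysis was possible because the series has 1 group. Depth is unknown, so absence from a list does not show absence of signal.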
